A study of Apis mellifera with 6 samples.

Results

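Hbg2, AGLU2 and Hbg3 are the alpha-glucosidase genes that carry a symbol of their own in the honey bee (Apis mellifera) tables, and they were taken by those symbols: 3 genes of the 10013 listed. Alpha-glucosidases cut glucose from the end of alpha-linked sugars such as sucrose and maltose, and in the bee gut they turn nectar sucrose into glucose and fructose that the midgut can absorb. Honey bees are known for a small family of these enzymes, numbered I, II and III. Enzymes I and II were described from the ventriculus, the bee midgut, and enzyme III from the hypopharyngeal gland of the head, from which it is secreted into honey. A reference gene table of the assembly Amel_HAv3.1 gives Hbg1 as a second name of AGLU2, so the set holds genes named for all the numbered enzymes. All are secreted glycoproteins that fold in the endoplasmic reticulum (ER) and receive N-linked sugar chains there.

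RNA sequencing of midguts compared bees fed sucrose solution with 24 µM tunicamycin and 0.5% DMSO (dimethyl sulfoxide, the solvent) with bees fed sucrose solution with 0.5% DMSO alone, each for 24 hours. Tunicamycin blocks the first step of N-glycosylation, so that misfolded glycoproteins build up in the ER. There were 3 tunicamycin samples (numbered 2, 3 and 4) and 3 controls (numbered 1, 2 and 3). The labels do not give the age, caste, colony or number of bees behind a sample, or how much solution was eaten, and separate cages or pools are not stated, so a p-value here speaks of the spread between samples that may differ only technically. Every midgut, control or treated, came from a bee fed sucrose, a substrate of these enzymes.

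Depth lay between 22763496 and 26278751 recovered reads per sample over the listed genes. Control 1 stood apart from its group, with 964 genes at least 2-fold away from the mean of the remaining controls, against 480 and 459 for controls 2 and 3. Tunicamycin samples 2, 3 and 4 had 617, 690 and 512 such genes. Hsc70-3, the ER chaperone BiP and a gauge of ER stress, was at 211942, 267564 and 317129 normalized reads in tunicamycin samples 2, 3 and 4, against 68417, 35140 and 25372 in controls 1, 2 and 3. Control 1 was thus the control with the highest Hsc70-3. The fold changes, shares and ratios of the 3 alpha-glucosidase genes are given below also without it, and those of other genes only with it.

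Hbg2 and AGLU2 were among the most abundant transcripts of the midgut, and Hbg3 was a minor one. By mean normalized reads over the 6 samples, Hbg2 ranked 5, AGLU2 ranked 6 and Hbg3 ranked 2380 among the 10013 genes. In the single samples Hbg2 ranked between 2 and 8, AGLU2 between 4 and 7, and Hbg3 between 1648 and 3876. These ranks are of reads and are not corrected for transcript length, so they do not order the genes by number of molecules. All 3 genes had a lower mean in tunicamycin, and with the deposited scaling the groups did not overlap for Hbg3 alone. A negative log2 difference was found for 49.8% of all genes. It was also found for 12 of the 18 other genes among the 20 most abundant, whose median was -0.29, so a lower level was not particular to Hbg2 and AGLU2. None of the 3 passed a Benjamini-Hochberg adjusted p under 0.05 over all genes in limma-trend, which called 1.13% of the 10013 genes, or in edgeR on the recovered reads, which called 0.939%.

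Hbg2, named for alpha-glucosidase II, had 667338, 694939 and 323009 normalized reads in tunicamycin samples 2, 3 and 4, against 513091, 608892 and 885501 in controls 1, 2 and 3. The lowest value was that of tunicamycin sample 4 and the highest that of control 3, while tunicamycin samples 2 and 3 lay above controls 1 and 2. The arithmetic means were 561762 ± 207226 normalized reads in tunicamycin and 669161 ± 193382 in controls (SD, n = 3 each). The difference of mean log2(value + 1) was -0.30 (SE 0.55; adjusted p = 0.838 in limma), with a 95% interval from -1.58 to 0.99, so that neither a 0.335-fold nor a 1.98-fold level in tunicamycin lies outside it. Without tunicamycin sample 4 the difference was 0.064, with the opposite sign, and without control 3 it was -0.074. The direction thus turned when that 1 tunicamycin library was left out, and the difference was near 0 without control 3. Without control 1 it was -0.47 (adjusted p = 0.689 in limma). The spread of Hbg2 within groups was 0.52 (SD, log2), against a median of 0.24 over all genes. For the 18 other genes among the 20 most abundant the median was 0.40, and 7 of them had a larger spread than Hbg2. Tunicamycin sample 4 held the lowest value of 11 of the 18 other genes among the 20 most abundant, and of 18.0% of all genes. The part of that library in the result was not tested beyond leaving it out.

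AGLU2, the gene also called Hbg1, had 493535, 607002 and 378312 normalized reads in tunicamycin samples 2, 3 and 4, against 589398, 709964 and 705211 in controls 1, 2 and 3. Tunicamycin sample 3 lay above control 1, and all other tunicamycin values lay below all controls. The means were 492950 ± 114346 normalized reads in tunicamycin and 668191 ± 68278 in controls (SD, n = 3 each). The log2 difference was -0.46 (SE 0.47; adjusted p = 0.673 in limma), with a 95% interval from -1.55 to 0.63. The limma SE is set partly by the spread of other genes of like level, so it is not that of AGLU2 alone. DESeq2 on the recovered reads gave log2 -0.44 (SE 0.21, DESeq2 adjusted p = 0.262). In a bulk tissue fewer cells that make an enzyme and less RNA per cell cannot be told apart, here and for the other genes. Each deposited table pairs a control with a tunicamycin sample, and AGLU2 was lower in tunicamycin in all 3, at -0.26, -0.23 and -0.90 on the log2 scale. Hbg2 was at 0.38, 0.19 and -1.45 in the same tables. The third table, with tunicamycin sample 4 and control 3, gave the lowest difference for both. Without tunicamycin sample 4 the difference of AGLU2 was -0.28, and without control 1 it was -0.55 (adjusted p = 0.542 in limma). The SD within groups was 0.26 (log2) for AGLU2, near the median of 0.24 over all genes and below that of 14 of the 18 other genes among the 20 most abundant.

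Hbg3, named for the enzyme of the hypopharyngeal gland and honey, had 950, 989 and 599 normalized reads in tunicamycin samples 2, 3 and 4, against 1168, 1609 and 1736 in controls 1, 2 and 3. Every tunicamycin sample lay below every control, which held for 10.7% of the 10013 genes. The means were 846 ± 215 normalized reads in tunicamycin and 1504 ± 298 in controls (SD, n = 3 each), a level 0.557-fold that of controls by the difference of mean log2 values. That difference was -0.84 (log2; SE 0.23; adjusted p = 0.163 in limma), with a 95% interval from -1.39 to -0.29 before adjustment. Hbg3 was among the 6.56% of all genes with a lower level at an unadjusted limma p under 0.05. DESeq2 on the recovered reads called Hbg3 lower (log2 -0.83, SE 0.26; DESeq2 adjusted p = 0.0278), and it called 5.27% of 9790 genes in all and 1.17% lower. edgeR did not (adjusted p = 0.162). Without control 1 the difference was -1.02 (limma adjusted p = 0.108), and without tunicamycin sample 4 it was -0.61 (limma adjusted p = 0.424). Within the deposited tables it was -0.30, -0.70 and -1.53. Counting noise was small beside these differences: the lowest count was 635 reads, for which the expected counting error is 3.97%.

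**Figure D1:**
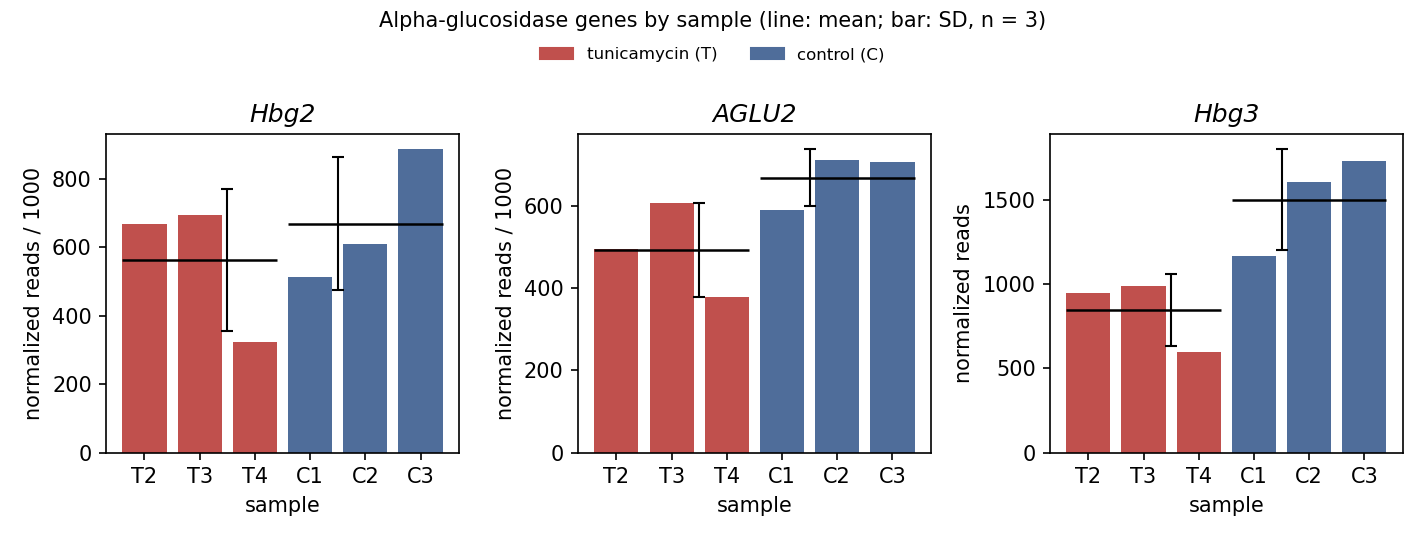
Normalized reads of Hbg2, AGLU2 (both divided by 1000) and Hbg3 in each sample, with tunicamycin samples (T2, T3, T4) left of controls (C1, C2, C3), the group mean as a line and the SD as an error bar (n = 3). Hbg2 and AGLU2 overlap between the groups, and Hbg3 lies between 599 and 989 in tunicamycin and between 1168 and 1736 in controls.

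**Figure D2:**
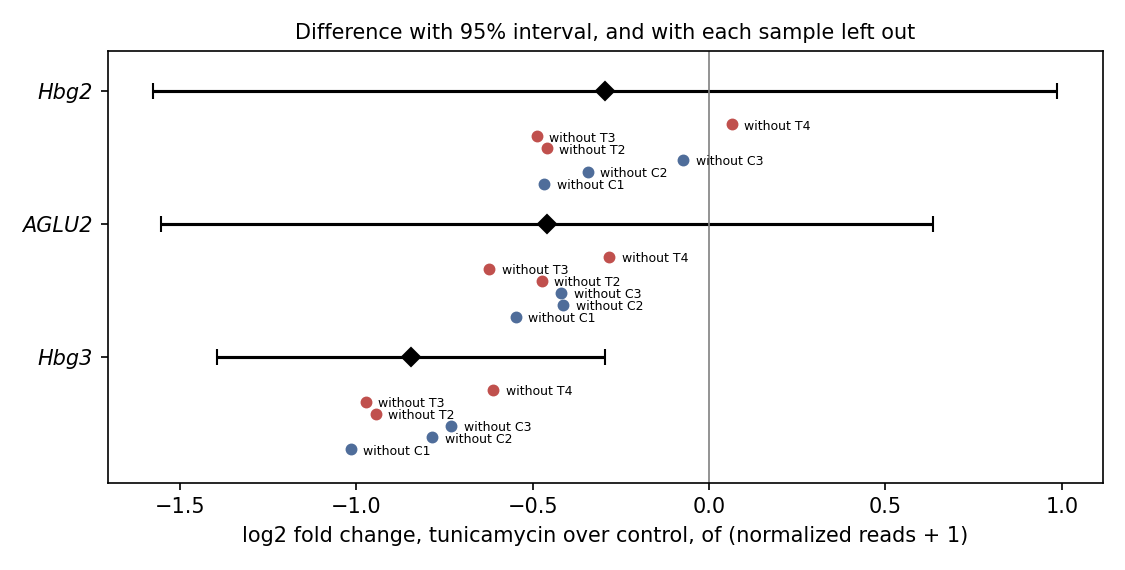
Log2 fold change of tunicamycin over control for each gene (diamond, with its 95% limma interval, unadjusted), and the same with 1 sample left out (points, red for a tunicamycin and blue for a control sample). Without T4 the value for Hbg2 crosses 0 to 0.064, while those for AGLU2 stay between -0.62 and -0.28 and those for Hbg3 between -1.02 and -0.61.

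The enzymes took a visible part of all midgut reads. The 3 genes together held 4.68%, 4.93% and 3.09% of the recovered reads in tunicamycin samples 2, 3 and 4, against 4.74%, 5.40% and 6.61% in controls 1, 2 and 3. Tunicamycin sample 4 had the lowest share and control 3 the highest, and tunicamycin sample 3 lay above control 1. The mean shares were 4.23% ± 1.00 in tunicamycin and 5.58% ± 0.95 in controls (SD, n = 3 each; exact permutation test, two-sided, p = 0.2). With 3 samples a group this test cannot give a p under 0.1. The difference of -1.35 percentage points was -0.777 without tunicamycin sample 4, -0.836 without control 3 and -1.77 without control 1. Counting error was far smaller than these differences, with a 95% Wilson interval of 3.08% to 3.09% for the share in tunicamycin sample 4. Such intervals cover counting error only.

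Nearly all of that share came from Hbg2 and AGLU2. Hbg2 held 2.69%, 2.63% and 1.42% of reads in tunicamycin samples 2, 3 and 4, against 2.20%, 2.49% and 3.67% in controls 1, 2 and 3 (exact permutation p = 0.6, n = 3 each). That difference of -0.543 percentage points was -0.130 without tunicamycin sample 4, -0.100 without control 3 and -0.837 without control 1. AGLU2 held 1.99%, 2.29% and 1.66% of reads in tunicamycin samples 2, 3 and 4, against 2.53%, 2.90% and 2.93% in controls 1, 2 and 3. On this scale each tunicamycin sample lay below each control for AGLU2, which held for 13.9% of all genes (mean 1.98% ± 0.32 in tunicamycin and 2.79% ± 0.22 in controls; exact permutation p = 0.1, the smallest that 3 against 3 can give). With the deposited scaling the AGLU2 groups overlapped by a single pair of samples, tunicamycin 3 and control 1, so whether they overlap depends on the scaling. The difference in AGLU2 share was -0.804 percentage points, and -0.932 without control 1. With each library scaled to its total the limma difference of AGLU2 was -0.50 (SE 0.40; limma adjusted p = 0.612).

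Hbg3 held a small share on any scale. It was at 0.00383%, 0.00374% and 0.00263% of reads in tunicamycin samples 2, 3 and 4, against 0.00501%, 0.00658% and 0.00720% in controls 1, 2 and 3. The 95% Wilson interval of the highest tunicamycin share, that of sample 2, ran from 0.00358% to 0.00409%, and that of the lowest control share, that of control 1, from 0.00473% to 0.00531%. These intervals do not overlap, so this gap of single samples is larger than counting error (exact permutation p = 0.1 over the samples, n = 3 each). The difference in Hbg3 share was -0.00286 percentage points, and -0.00349 without control 1. With each library scaled to its total the limma difference of Hbg3 was -0.88 (SE 0.20; limma adjusted p = 0.120).

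Ratios between the genes within a sample do not depend on how that sample was scaled. They do depend on transcript length, so they are compared here between groups and not read as numbers of molecules. AGLU2 to Hbg2 was 0.740, 0.873 and 1.17 in tunicamycin samples 2, 3 and 4, against 1.15, 1.17 and 0.796 in controls 1, 2 and 3. The order of the abundant pair therefore differed between samples of the same group: Hbg2 led in tunicamycin samples 2 and 3 and in control 3, and AGLU2 led in the other 3 samples. The mean log2 ratio was -0.13 ± 0.34 in tunicamycin and 0.031 ± 0.31 in controls, a difference of -0.17 (SE 0.26; exact permutation p = 0.7, n = 3 each). It ranged from -0.35 without tunicamycin sample 4 to -0.015 without tunicamycin sample 2, and was -0.081 without control 1.

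The ratio of Hbg3 to each abundant gene was lower in tunicamycin. Per 1000 reads of AGLU2 there were 1.93, 1.63 and 1.58 normalized reads of Hbg3 in tunicamycin samples 2, 3 and 4, against 1.98, 2.27 and 2.46 in controls 1, 2 and 3. Every tunicamycin sample lay below every control, although tunicamycin sample 2 and control 1 were close. The mean log2 ratio was -9.19 ± 0.15 in tunicamycin and -8.81 ± 0.16 in controls, a difference of -0.38 (SE 0.13; exact permutation p = 0.1, n = 3 each), and of -0.47 without control 1. A ratio to AGLU2 that was lower in every tunicamycin sample was found for 0.44% of the 10011 other genes. One that was higher in every tunicamycin sample was found for 26.8%. AGLU2 itself had a lower mean in tunicamycin, so a gene of unchanged level has a higher ratio to it. On normalized reads, 10.7% of all genes were lower in every tunicamycin sample. In the reference table Hbg3 and AGLU2 are next to each other on the genome.

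Per 1000 normalized reads of Hbg2 there were 1.42, 1.42 and 1.85 of Hbg3 in tunicamycin samples 2, 3 and 4, against 2.28, 2.64 and 1.96 in controls 1, 2 and 3. The groups did not overlap here either, with tunicamycin sample 4 and control 3 the closest. The mean log2 ratio was -9.33 ± 0.22 in tunicamycin and -8.78 ± 0.22 in controls, a difference of -0.55 (SE 0.18; exact permutation p = 0.1, n = 3 each), and also of -0.55 without control 1. Of 10011 genes, with Hbg3 counted and Hbg2 and AGLU2 left out, 0.45% had a ratio to Hbg2 that was lower in every tunicamycin sample. A higher ratio in every tunicamycin sample was found for 5.63%. Hbg2 too had a lower mean in tunicamycin, which raises the ratio of a gene of unchanged level. A total of 3 ratios were compared, and none can reach a p under 0.05 with these numbers of samples.

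**Figure D3:**
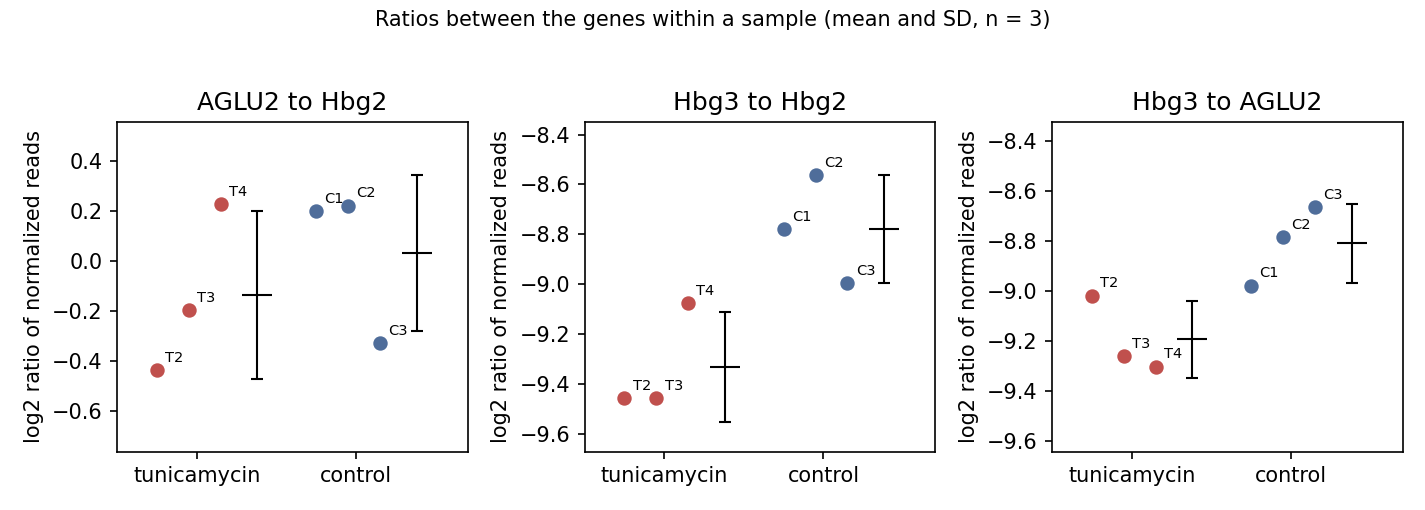
Log2 ratio of normalized reads within each sample for the 3 pairs of genes, tunicamycin left of control, with the mean and SD beside the points (n = 3; the vertical axes span the same range). AGLU2 to Hbg2 overlaps between the groups, while both ratios of Hbg3 are lower in all tunicamycin samples, by 0.55 to Hbg2 and by 0.38 to AGLU2 on average.

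The order of the samples was compared between the genes. Hbg3 was lowest in tunicamycin sample 4, then 2 and 3, then controls 1, 2 and 3. Hsc70-3 ran in the opposite order over the controls, highest in control 1 and lowest in control 3, and was highest in tunicamycin sample 4, where Hbg3 was lowest. Tunicamycin samples 2 and 3 broke this mirror, with both genes lower in sample 2. Control 1, which stood apart from its group, thus held the highest Hsc70-3 and the lowest Hbg3 of the controls. Within each group Hbg2 had the same order of samples as Hbg3, though its groups overlapped, and AGLU2 was also lowest in control 1 among controls and in sample 4 among tunicamycin samples. This comparison of orders was chosen after the values were seen.

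Likeness of pattern was measured as the root mean square difference between log2 values over the 6 samples, each gene centred on its own mean, among 217 other genes with a symbol and a mean of at least 100 normalized reads. The closest to Hbg3 were Gpdh, a glycerol-3-phosphate dehydrogenase, at 0.17, GlnS at 0.21 and AGLU2 at 0.23, against a median of 0.58. Gpdh had 2832, 2675 and 1371 normalized reads in tunicamycin samples 2, 3 and 4, against 2540, 4077 and 3765 in controls 1, 2 and 3. It did not pass (log2 -0.64, SE 0.31; limma adjusted p = 0.376). GlnS averaged 12349 ± 2574 normalized reads in tunicamycin and 20583 ± 5528 in controls (SD, n = 3 each) and did not pass either (log2 -0.72, SE 0.24; limma adjusted p = 0.232).

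Gpdh was also the closest to Hbg2, at 0.26, followed by AGLU2 at 0.28 and Dsx, the sex determination gene doublesex, at 0.29 (median 0.52). For AGLU2 the closest were Tert, the telomerase reverse transcriptase, at 0.15, DHRS4, a short-chain dehydrogenase/reductase, at 0.16 and Obp11, an odorant-binding protein, at 0.17 (median 0.41). Tert and DHRS4 were lower in every tunicamycin sample than in any control, as were 10.7% of all genes, and Obp11 was not. Among all 7434 other genes with that mean level, LOC numbers included, 55 were closer to Hbg3 than AGLU2 was, and 61 were closer to Hbg2 than AGLU2 was. Seen from AGLU2, 747 were closer than Hbg3 and 1566 closer than Hbg2. Hbg2 and Hbg3 were less alike, at 0.33, with 217 genes closer to Hbg2 and 274 closer to Hbg3.

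**Figure D4:**
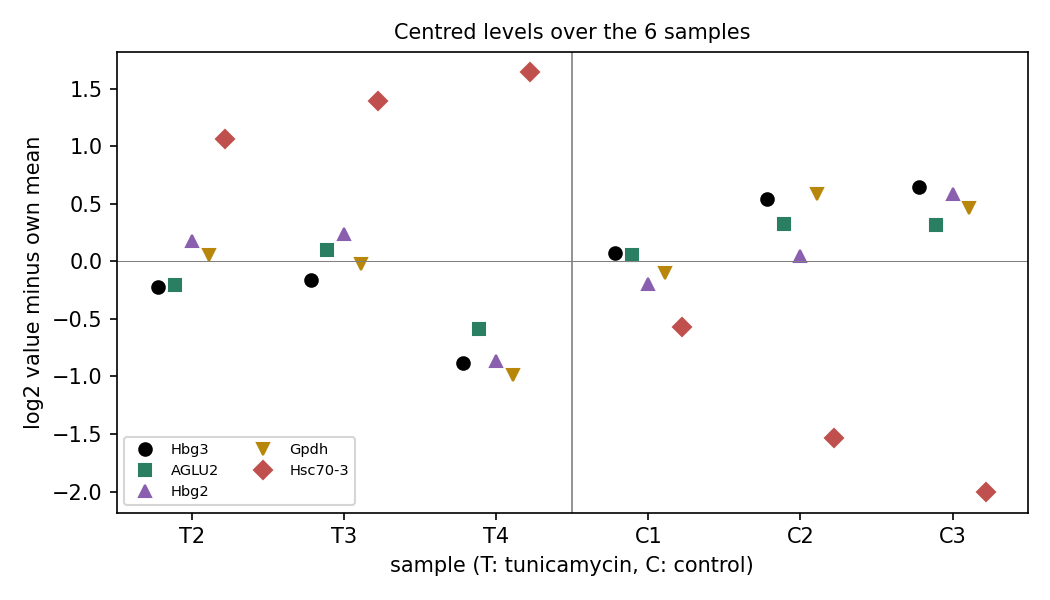
Log2 of normalized reads plus 1 minus the gene's own mean over the 6 samples (T, tunicamycin; C, control), for the 3 alpha-glucosidase genes, for Gpdh, the closest to Hbg3 by likeness (0.17), and for Hsc70-3. The alpha-glucosidase genes and Gpdh share their lowest point in T4, where Hsc70-3 has its highest. Gpdh was picked for its likeness to Hbg3 over these same samples, so its low point in T4 is not a separate result. T4 was also lowest for 11 of the 18 other genes among the 20 most abundant, and for 18.0% of all genes.

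Other genes of sugar digestion and handling could be followed only where the tables carry a symbol, which held for 5 of the 29 symbols listed, AGLU2 among them. None of the 4 others passed in limma, edgeR or DESeq2, and 1 had an unadjusted limma p under 0.05, beside 15.5% of all genes. Tret1, a trehalose transporter, averaged 12690 ± 1731 normalized reads in tunicamycin and 13143 ± 863 in controls (log2 -0.057, SE 0.15; limma adjusted p = 0.888). The insulin-like peptide gene ILP-2 was at log2 0.019 (SE 0.35) and the insulin receptor gene InR-2 at log2 0.29 (SE 0.29). The gene with the low unadjusted p was Akhr, the receptor of the adipokinetic hormone that mobilizes stored sugar and fat. It had 31.6, 31.7 and 9.43 normalized reads in tunicamycin samples 2, 3 and 4, against 4.00, 12.1 and 6.80 in controls 1, 2 and 3 (log2 1.48, SE 0.62; limma adjusted p = 0.311). B-gluc1, a beta-glucosidase gene added after the values were seen, averaged 122 ± 35.4 normalized reads in tunicamycin and 156 ± 73.2 in controls (log2 -0.30, SE 0.37; limma adjusted p = 0.735). The median log2 difference of the 4 listed genes was 0.16, against 0.0014 over all genes.

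Since enzyme III was described from the hypopharyngeal gland, markers of that gland are given beside Hbg3. Of its 10 listed markers, 3 were found, the royal jelly protein genes Mrjp4, Mrjp7 and Mrjp8, and none was at 0. The other 7 (Mrjp1, Mrjp2, Mrjp3, Mrjp5, Mrjp6, Mrjp9 and Gox) were not found by symbol or second name. The summed level of the 3 found genes lay between 1905 and 2748 normalized reads in tunicamycin and between 1529 and 2984 in controls, so the groups overlapped. Mrjp4 averaged only 12.6 ± 8.30 in tunicamycin and 8.37 ± 2.94 in controls (log2 0.39, SE 0.59). It ranked 9964 among the 10013 genes, so the sum is nearly all Mrjp7 and Mrjp8. Mrjp7 averaged 1269 ± 254 in tunicamycin and 1124 ± 335 in controls (log2 0.20, SE 0.26), and Mrjp8 1016 ± 168 in tunicamycin and 1322 ± 467 in controls (log2 -0.32, SE 0.29). Of the markers of other tissues and cells, 5 fat body genes summed to between 448 and 790 normalized reads in tunicamycin and between 690 and 918 in controls. Among these Hex70a, a hexamerin storage protein, was lower in every tunicamycin sample than in any control, as were 10.7% of all genes (log2 -0.80, SE 0.23; limma adjusted p = 0.176). The 4 troponin genes of visceral muscle summed to between 5571 and 7433 in tunicamycin and between 4404 and 7310 in controls. The hemocyte gene PPO lay between 42.5 and 67.9 in tunicamycin and between 59.6 and 71.9 in controls, and the enteroendocrine genes Tk, NPF and Syt1 summed to between 709 and 1118 in tunicamycin and between 619 and 750 in controls. None of these marker genes passed in limma, edgeR or DESeq2 (which gave Mrjp4 no adjusted p), and Hex70a and Tk alone had an unadjusted limma p under 0.05, beside 15.5% of all genes. Their part in the level of Hbg3 was not tested.

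Of the ER chaperone genes followed by symbol, Hsc70-3 lay between 211942 and 317129 normalized reads in tunicamycin and between 25372 and 68417 in controls. Ppib lay between 13041 and 14542 in tunicamycin and between 7672 and 9906 in controls. The share of all genes that were higher in every tunicamycin sample is not given here. Hsc70-3 passed (log2 2.73, SE 0.40; limma adjusted p = 0.0279), and Ppib, the ER cyclophilin, did not in limma (log2 0.67, SE 0.14; limma adjusted p = 0.0878) or edgeR (adjusted p = 0.105) but did in DESeq2 (adjusted p = 6.20e-04).

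The place of the genes bears on how far their reads are their own. In the reference table, Hbg3 and AGLU2 both lie inside the span of the longer gene LOC724389, and Hbg2 lies inside that of LOC725803, which was not analysed here. The strand setting of the counting is not given in the sources used here, so reads of overlapping genes cannot be told apart with certainty, and neither can reads shared by similar copies of a gene family. LOC724389 was listed at 109, 41.2 and 76.4 normalized reads in tunicamycin samples 2, 3 and 4, against 32.0, 64.2 and 60.2 in controls 1, 2 and 3. These levels are low beside Hbg3 and AGLU2, and they were not lower in tunicamycin (log2 0.48, SE 0.42; limma adjusted p = 0.627). LOC412448, the nearest gene past AGLU2 with values in the tables, was at 2696, 2270 and 1621 normalized reads in tunicamycin samples 2, 3 and 4, against 2568, 2747 and 2851 in controls 1, 2 and 3 (log2 -0.34, SE 0.19; limma adjusted p = 0.433). It too was lowest in tunicamycin sample 4. LOC411255, before Hbg2, averaged 582 ± 22.4 normalized reads in tunicamycin and 650 ± 22.6 in controls (log2 -0.16, SE 0.10; limma adjusted p = 0.514), a narrower spread than that of Hbg2. It was lower in every tunicamycin sample than in any control, as were 10.7% of all genes.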

How the data were processed

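Each of the 3 deposited files sets 1 control beside 1 tunicamycin sample, over the same 10013 genes. The authors deposited a normalized signal: reads per gene after division by a factor for the sample. This was learnt from the values, of which 100% in every column were whole multiples of what 1 read is worth (tolerance 0.001 of a read). For control 1 the factor is so near 1 that large values alone reveal it. The median ratio to the geometric mean was 1.003 in all 6 samples, so the files share 1 scaling. Midguts were kept in RNAlater, RNA was extracted with Trizol and poly(A) libraries were made with a NEBNext Ultra kit, per the labels' protocols. Trimmomatic 0.36, STAR, Subread and DESeq2 appear in the submitters' processing notes; their roles and the build are not given there.

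The main test was limma-trend from limma 3.58.1 in R 4.3.3, applied to log2(value + 1) over all genes, all 6 samples, group only, with Benjamini-Hochberg adjustment. Fold changes are on that scale. The minimum mean of 1 removed 0 genes. Recovered reads went to edgeR 4.0.16 (quasi-likelihood) and DESeq2 1.42.0, and shares and ratios to exact permutation tests (scipy 1.17.1). The limma, edgeR and DESeq2 fits were tested on simulated data. The simulated spread followed from mean level by a fixed rule and was not matched to the 3 genes, so it gives their results no support. Identifiers matched the reference table Amel_HAv3.1 in 9205 of 10013 cases; it was used for names and gene order. Further named genes were taken by symbol from lists, by likeness of pattern (3 per gene), and as the 2 neighbours on each side. The members and lists were chosen with earlier results of these data known. A comparison with sequence relatives of the enzymes was planned and not run, since no protein sequences were used here. Same-table samples deviated together with correlations of 0.05, 0.15 and 0.05, so the tables were not treated as pairs.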

Additional observations from a re-analysis of the deposited data

How the results depend on the processing

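Of 54 alternatives for the 3 genes, 1 gave a call and 1 turned the direction. Hbg3 passed in DESeq2 (log2 -0.83; adjusted p = 0.0278), against adjusted p up to 0.424 elsewhere; the cause was not tested. Hbg2 was at log2 0.064 without tunicamycin replicate 4, and between -0.49 and 0.064 with 1 sample left out. AGLU2 lay between -0.62 and -0.28 and Hbg3 between -1.02 and -0.61 in such fits. None of 56 alternatives turned a ratio or a share. With 1 sample left out the difference in share lay between -0.837 and -0.100 percentage points for Hbg2, -0.960 and -0.644 for AGLU2, -0.00349 and -0.00239 for Hbg3, and -1.77 and -0.777 for the 3 together. The ratio of Hbg3 to AGLU2 lay between -0.47 and -0.31 (log2) with 1 sample left out, that of Hbg3 to Hbg2 between -0.68 and -0.44, and that of AGLU2 to Hbg2 between -0.35 and -0.015. The count of genes past the threshold was 113, against 516 in DESeq2 (cause not tested) and between 20 and 202 with 1 sample left out: 202 without control 1, 57 without tunicamycin 2, 32 without tunicamycin 4, 23 without control 2 and 20 without control 3. With the replicate block by deposited table it was 44, and with the replicate block by shared number, which leaves 4 samples, 4; neither block called any of the 3 genes (Hbg3 adjusted p = 0.267 and 0.172). Same-numbered samples deviated apart, at -0.12 and -0.10, so the number is not taken to pair them. Library-total scaling and TMM scaling without the members and the most abundant gene were added after seeing the data. Omitting the low-value filter changed nothing, since it removes 0 genes, and the comparison of sequence relatives was not run.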
